A study of Mus musculus with 16 samples.

Results

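The genes described here are 34 genes of the p53 pathway, namely *Trp53*, which encodes p53, 3 regulators of p53 and 30 genes known as its transcriptional targets, in mouse dorsal skin with and without UVB. They were chosen by symbol, and each matched 1 of the 55359 Ensembl gene identifiers counted in every library. All 34 passed the filter on low counts, so that none was left out. A stricter filter of at least 10 counts in every mouse, tried as an alternative, left out *Gdf15*. RNA was taken from the whole dorsal skin of wildtype C57Bl/6N mice (C57Bl/6 in the labels) aged 8 weeks, with resting (telogen) hair follicles. The 4 groups of 4 mice were no-UVB males, UVB-irradiated males, no-UVB females and UVB-irradiated females, and each mouse gave 1 library. Irradiated mice had received 3 UVB exposures, and skin was collected 6 h after the last exposure, on day 5. The labels give all mice as wildtype, with no allele or agent other than UVB, and polyadenylated RNA was sequenced with strand kept. The libraries therefore show the level of each messenger RNA in a mixture of epidermis, dermis, fat and muscle, and neither the amount of p53 protein nor its binding to DNA was measured. In such bulk samples, fewer cells of a type and less RNA per cell cannot be told apart.

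p53 is a transcription factor that is kept scarce by the ubiquitin ligase Mdm2 and becomes stable when kinases that sense DNA damage, such as Atm and Atr, phosphorylate it. It then binds pairs of short half-sites in DNA and raises the transcription of genes that stop the cell cycle, start apoptosis, aid repair and adjust metabolism. In the epidermis, UVB forms pyrimidine dimers in DNA, and p53 is known for the arrest of damaged keratinocytes, for sunburn cells and for tanning. Several of its targets, Mdm2 and the phosphatase Ppm1d among them, act back on p53 and limit the response.

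DNA letters around the genes were examined first, because a p53 site is what the target genes are known to share. Windows of 5000 bases on each side of the start of the canonical transcript were searched in GRCm39 for the p53 consensus, which is 2 half-sites with 0 or 1 base between them and is its own reverse complement, so that a single search covers both strands. With up to 2 mismatches in all, 17 of the 34 genes had a match (50%), against 13.4% of the windows of 21463 protein-coding genes. With up to 1 mismatch there were 10 (29.4%, against 3.08%), and with none there were 3 (8.82%, against 0.447%), which were *Trp53inp1*, *Ddit4* and *Zmat3*. A match is a run of letters and not a measured binding site. Matches of 7 genes are printed here, each on the strand of its gene, as examples. They are from genes that rose in both sexes (*Cdkn1a*, *Psrc1*, *Zmat3* and *Rps27l*) and from 3 genes whose responses set the sexes or the control mice apart (*Ccng1*, *Trp53inp1* and *Ddit4*). Capitals mark the 4 central bases of each half-site. The search required these bases to fit the consensus, so that every match has them by construction and mismatches could lie only in the other bases.
*Cdkn1a*: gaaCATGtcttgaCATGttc
*Psrc1*: gggCATGttgaggCATGccc
*Zmat3*: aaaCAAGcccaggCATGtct
*Rps27l*: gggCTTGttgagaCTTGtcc
*Ccng1*: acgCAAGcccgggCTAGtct
*Trp53inp1*: aaaCATGtccaggaCTAGcct
*Ddit4*: aagCATGtccaggCTAGccc

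The *Cdkn1a* match lay at chr17:29309902-29309921 on the plus strand, 2826 bases upstream of the canonical start and just before the annotated gene, which spans chr17:29309936-29319701. The match of *Trp53inp1* lay at chr4:11155112-11155132 on the plus strand, 1290 bases upstream, and that of *Ddit4* at chr10:59792283-59792302 on the minus strand, 4630 bases upstream, where no gene is annotated. The other 4 were intronic. *Psrc1* had its match in intron 3 at chr3:108291972-108291991 (plus strand), *Zmat3* in intron 1 at chr3:32418480-32418499 (minus strand), *Rps27l* in intron 1 at chr9:66853578-66853597 (plus strand) and *Ccng1* in intron 1 at chr11:40645763-40645782 (minus strand). Other annotated genes lie over the matches of *Cdkn1a* (*Gm64878*), *Trp53inp1* (*Gm69016*) and *Psrc1* (*Gm12522*). Of the 17 genes with a match, 9 rose in both sexes, and of the 17 without one, 9 did too.

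**Figure D1:**
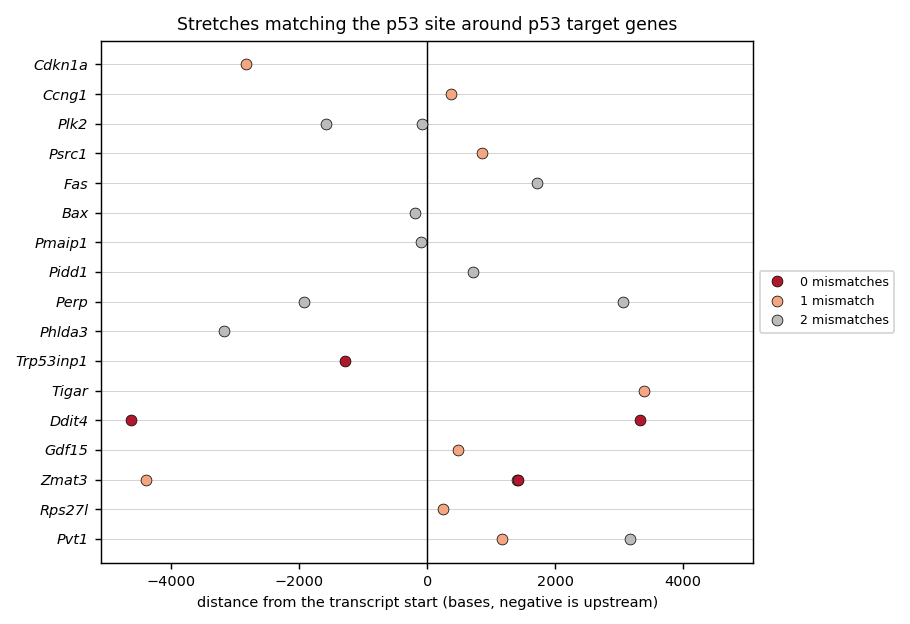
Distance in bases of each match to the p53 consensus (up to 2 mismatches) from the start of the canonical transcript, for the 17 of 34 genes that had one. Negative distances are upstream, and the colour of a marker gives its number of mismatches. The matches of *Trp53inp1*, *Ddit4* and *Zmat3* include the only ones with 0 mismatches.

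Reads on genes numbered 16495776 to 33404831 per mouse, and *Gdf15*, the one of the 34 genes with the fewest reads, had 5 to 34 counts. Values are given as normalized counts (CPM, counts scaled by library size with TMM factors), listed for mice 1 to 4 of a group in that order. Libraries of a group were not equally alike. No-UVB males 1 and 2 had higher CPM than no-UVB males 3 and 4 for *Ddit4* (225 and 244 against 71.2 and 87.4), *Trp53inp1* (256 and 249 against 81.4 and 85.7), *Sesn1* (112 and 121 against 72.6 and 75.9) and *Btg2* (101 and 108 against 54.6 and 58.7). Over all genes, the largest differences within a group were those of irradiated female 2 from irradiated females 3 and 4 (chi-square per degree of freedom 98.3 and 80.7, against 38.1 at most among no-UVB males). Irradiated females 1 and 2 both lay below irradiated females 3 and 4 for 18 of the 34 genes and both above for 8. Among the 18 were *Cdkn1a* (267 and 253 against 324 and 324 CPM), *Aen* (32.6 and 34.4 against 45.7 and 48.5) and *Zmat3* (37.5 and 39.5 against 52.6 and 49.2). The share of all genes that split in this way was not counted, so these counts cannot be read as particular to the 34 genes. The fits were therefore repeated without no-UVB males 1 and 2, and again without irradiated females 1 and 2, both settings chosen after seeing the data. Values from them are given for the genes named whose call changed or whose called value moved by over 1.5 times. Marker genes of keratinocytes, fibroblasts, skeletal muscle, adipocytes, neutrophils, macrophages, T cells, endothelium and melanocytes were all detected, as whole skin would contain them, and none was at 0 in a group. The summed levels of some of these lists differed between the groups without overlap. Control males had a summed CPM of 7630 to 12300 for 7 keratinocyte markers and irradiated males 20800 to 30000, while control females had 6570 to 10100 and irradiated females 11300 to 14800. Within this list *Krt14*, *Krt1*, *Krt10* and *Ivl* rose in both sexes by edgeR's quasi-likelihood test, and *Dsg3* in males. *Krt5* was not called, at 0.29 (adjusted p = 0.151) in males and -0.23 (adjusted p = 0.425) in females on the log2 scale. Nor was *Trp63*, at 0.07 (adjusted p = 0.698) and -0.21 (adjusted p = 0.46). For 6 fibroblast markers the summed CPM was 79100 to 86300, 28400 to 39300, 19200 to 20500 and 12100 to 21900 in the same order, and for 5 neutrophil markers it was 5.31 to 8.43, 45.3 to 149, 5.21 to 9.05 and 12.9 to 19.4. In irradiated males *S100a8* was at 12.9 to 59.5 CPM and *S100a9* at 23.7 to 79.9, while *Cxcr2* was at 5.12 to 6.25. *S100a9* and *Cxcr2* rose in both sexes by the same test, and *S100a8* and *Mmp8* in males. *S100a8* was not called in females, at 0.17 (adjusted p = 0.812). *Retnlg* was not called, at -0.52 (adjusted p = 0.29) in males and -0.09 (adjusted p = 0.883) in females. Most of the fibroblast sum was collagen, since *Col1a1*, *Col1a2* and *Col3a1* made up 94.8% to 95.9% of it in control males and 82.0% to 86.7% in control females. The other 3 fibroblast markers summed to 3210 to 4170 and 2730 to 3450 CPM in these groups, and between the sexes without UVB *Pdgfra* had a log2 difference (males minus females) of -0.28 (SE 0.105, adjusted p = 0.122) and *Dcn* of 0.19 (SE 0.124, adjusted p = 0.41), neither called. *Lum*, the remaining marker, was called higher in males, at 0.75 (SE 0.119, adjusted p = 0.000912). For 6 skeletal muscle markers the sum was 14600 to 19400, 8730 to 11200, 9540 to 13900 and 10500 to 13600 in the same order of groups, and it was lower in irradiated than in control males without overlap. For 4 T cell markers it was 31.2 to 40.5, 17.7 to 24.7, 41.1 to 62.3 and 31.5 to 39.1, and irradiated mice of both sexes lay below their controls. The other 4 sums overlapped between control and irradiated mice of a sex or met at the ends of their ranges. They were 1280 to 1960, 1090 to 1530, 1370 to 2350 and 1380 to 2940 for 5 adipocyte markers. For 5 macrophage markers they were 833 to 1010, 668 to 833, 727 to 1200 and 618 to 864. For 3 endothelial markers they were 229 to 270, 233 to 283, 246 to 278 and 236 to 355. For 4 melanocyte markers they were 23.8 to 33.1, 29.4 to 45.1, 28.8 to 95.4 and 35.0 to 60.1. Gene by gene, 3 of the 5 adipocyte markers fell in males by edgeR's quasi-likelihood test, against 30.5% of all genes tested. None was called in females or had an unadjusted p under 0.05, where 12.8% of all genes were called higher and 10.6% lower. After UVB all 5 were lower in males than in females, against 12.5% of all genes, with a median log2 difference of -0.78. Without no-UVB males 1 and 2, 1 of the 5 fell in males, where 23.3% of all genes fell. Without irradiated females 1 and 2, 0 of the 5 were called between the sexes after UVB, where 4.35% of all genes were higher and 4.23% lower. The part that these cell types played in the values of the p53 genes was not tested.

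Most of the p53 pathway genes were higher after UVB in both sexes. Among males 21 of 34 rose and 3 fell (61.8% and 8.82%), at an adjusted p under 0.1 by edgeR's quasi-likelihood test over all genes, where 29.0% of all 16535 genes tested rose and 30.5% fell. Among females 22 rose and 1 fell (64.7% and 2.94%), against 12.8% and 10.6% of all 16883 genes tested. Their median change was 0.44 in males and 0.40 in females on the log2 scale, beside -0.02 and 0.00 over all genes tested. In each sex 5 genes rose by more than 1 on the log2 scale, against 4.08% of all genes in males and 1.63% in females. By more than 1, *Ddit4* fell in males (3.31% of all genes did) and no gene in females (1.08%). The genes that rose this far were *Psrc1*, *Pmaip1*, *Aen* and *Cdkn1a* in both sexes, with *Tnfrsf10b* as the fifth gene in males and *Gdf15* in females. The 4 mice of the UVB group all lay above the 4 controls for 19 genes in males, against 22.9% of all genes, and for 18 genes in females, against 11.1%. They all lay below for 3 genes in males (*Sesn1*, *Ddit4* and *Rrm2b*, against 24.3%) and 1 in females (*Mdm4*, against 10.1%). There were 18 genes that rose in both sexes, against 11.6% of the 16323 genes tested in both, none fell in both, against 9.18%, and none was called in opposite directions, against 0.153%. Without no-UVB males 1 and 2, the male counts were 23 higher and 3 lower, where 24.2% of all genes tested rose and 23.3% fell. Without irradiated females 1 and 2, the female counts were 19 higher and 0 lower by edgeR's quasi-likelihood test (22 and 0 at an unadjusted p under 0.05), where 10.4% of all genes tested rose and 8.18% fell.

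**Figure D2:**
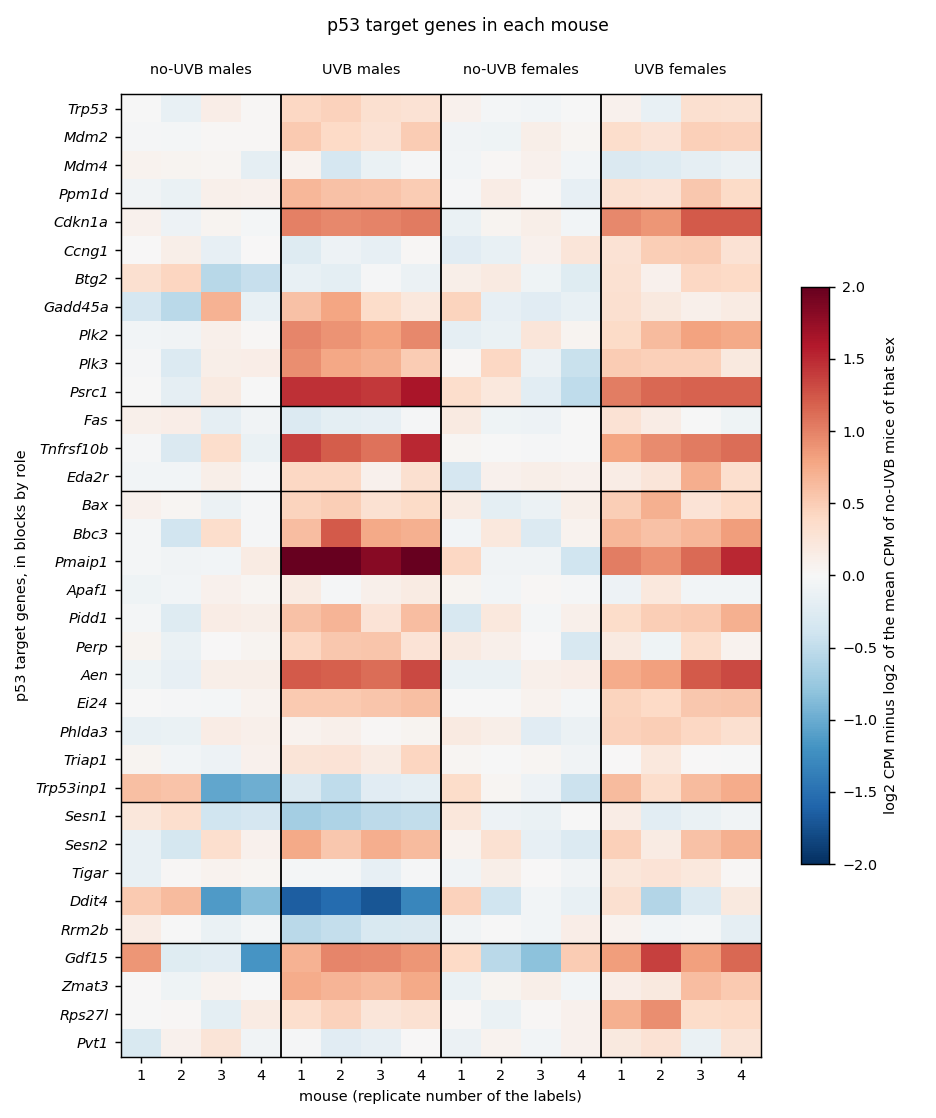
Heat map of the 34 genes in the 16 mice, with genes in rows by role and mice in columns by group. Colour gives the log2 CPM minus the log2 of the mean CPM of the no-UVB mice of that sex, on a scale that ends at -2 and 2. Most rows are higher in the UVB columns of both sexes, and no-UVB males 1 and 2 differ from no-UVB males 3 and 4 in *Btg2*, *Trp53inp1*, *Sesn1* and *Ddit4*.

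Levels per kb of canonical transcript differed widely between the genes. *Perp*, a desmosomal protein gene that also acts in apoptosis, was the highest, at a mean of 660 CPM per kb in no-UVB males and 662 in no-UVB females. *Rps27l*, a ribosomal protein paralog, followed at 161 and 142. *Cdkn1a* stood at 85.1 and 71.7, *Ddit4* at 89.1 and 41.2, and *Gdf15* was the lowest at 0.341 and 0.240. *Trp53* itself was at 28.2 and 29.1.

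Among p53 and its regulators, *Trp53* rose in males, *Mdm2* and *Ppm1d* rose in both sexes, and *Mdm4* fell in females. *Trp53* was at 51.7, 47.1, 57.2 and 53 CPM in no-UVB males and 69.7, 72, 65 and 63.6 in UVB-irradiated males, with no overlap and a log2 fold change of 0.39 (SE 0.0706, adjusted p = 0.000779). In females it was at 57.3, 52.4, 52.2 and 53.8 without UVB and 57.3, 48.7, 67.3 and 66.4 after it. The female groups overlapped and the change was not called, at 0.16 (SE 0.1, adjusted p = 0.314), although without UVB-irradiated female 2 it was (0.24, adjusted p = 0.0652), as it was without irradiated females 1 and 2 (0.31, adjusted p = 0.033). *Mdm2*, the ligase that degrades p53 and is itself a p53 target, was at 50.5, 49.9, 51.9 and 51.9 CPM in no-UVB males and 73, 67.4, 62.5 and 72.7 after UVB. Its values in females were 47.1, 46.4, 53.5 and 50.9 without UVB and 63.1, 59.8, 68.7 and 68.2 after it. Irradiated mice of both sexes lay above their controls, and *Mdm2* rose 1.37-fold in males, by 0.45 (SE 0.0598, adjusted p = 9.48e-05) on the log2 scale, and 1.32-fold in females, by 0.40 (SE 0.0754, adjusted p = 0.0065). *Ppm1d*, a phosphatase that switches off the DNA damage response, was at 21.6, 20.9, 24.4 and 24.3 CPM in no-UVB males and 36.3, 34.3, 33.7 and 32.4 after UVB. In females it was at 22.4, 25, 23 and 20.2 without UVB and 27.9, 27.3, 32.9 and 29.6 after it. It too rose without overlap in both sexes, by 0.61 (SE 0.0728, adjusted p = 5.11e-05) and 0.38 (SE 0.0889, adjusted p = 0.0166). *Mdm4*, a relative of Mdm2 that restrains p53 activity, was at 155, 164, 170 and 154 CPM in no-UVB females and 131, 135, 142 and 148 after UVB. It fell in females, with a log2 fold change of -0.20 (SE 0.0699, adjusted p = 0.0752), and the call was lost without UVB-irradiated female 1, 2 or 3 or no-UVB female 2 or 3 (-0.21 to -0.18, adjusted p 0.119 to 0.18). It was also lost with every gene of at least 1 count in the fit (adjusted p = 0.194), with the replicate number as a block (adjusted p = 0.107) and without irradiated females 1 and 2 (-0.15, adjusted p = 0.284). Male groups overlapped, at 152, 150, 148 and 127 CPM without UVB and 151, 114, 132 and 142 after it.

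Of the 7 genes that act in cell cycle and growth arrest, 4 rose in males (57.1%, against 29.0% of all genes tested) and 6 in females (85.7%, against 12.8%). *Cdkn1a*, which encodes the cyclin-dependent kinase inhibitor p21, was at 173, 153, 170 and 159 CPM in no-UVB males and 328, 318, 326 and 336 in UVB-irradiated males. In females it was at 125, 143, 150 and 133 without UVB and 267, 253, 324 and 324 after it. It rose 2.03-fold in males, by 1.02 (SE 0.0597, adjusted p = 7.12e-07) on the log2 scale, and 2.13-fold in females, by 1.09 (SE 0.104, adjusted p = 0.000197). The 4 irradiated males lay within 318 to 336 CPM, a narrower range than the 253 to 324 of irradiated females. *Psrc1*, which encodes a spindle-associated protein, had the largest rise of this group in males and, with all mice, in females. Its CPM was 8.48, 7.55, 9.66 and 8.49 in no-UVB males and 23.5, 23.6, 22.7 and 26.6 after UVB, and 11, 10, 7.43 and 6.06 without UVB and 17.6, 19.1, 19.5 and 19.6 after it in females. The log2 fold change was 1.51 (SE 0.092, adjusted p = 8.99e-07) in males and 1.14 (SE 0.161, adjusted p = 0.00145) in females. Without irradiated females 1 and 2, the female rise was 1.18 (SE 0.212) for *Psrc1* and 1.23 (SE 0.0959) for *Cdkn1a*. *Plk2*, a polo-like kinase induced by stress, was at 27.9, 27.6, 31.2 and 29.4 CPM without UVB and 57.2, 54, 50.5 and 56.7 after it in males and at 27.3, 28.2, 36.6 and 32.2 without UVB and 40.6, 48.4, 54.1 and 52.8 after it in females. It rose without overlap by 0.93 (SE 0.0643, adjusted p = 1.58e-06) and 0.66 (SE 0.117, adjusted p = 0.00479).

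*Plk3*, its relative, was at 35.9, 30.2, 39.5 and 39.9 CPM in no-UVB males and 69.6, 62.1, 59.7 and 51.7 after UVB, and rose by 0.76 (SE 0.107, adjusted p = 0.000164). The female values, 34, 44.7, 30.7 and 24.5 without UVB and 47.5, 46.8, 46.7 and 38.3 after it, overlapped through 1 control mouse. The female rise of 0.43 (SE 0.159, adjusted p = 0.0982) was lost without UVB-irradiated female 1, 2 or 3 or no-UVB female 1, 3 or 4 (0.30 to 0.43, adjusted p 0.145 to 0.203). Scaling by DESeq2's size factors (0.42, adjusted p = 0.105) or by the upper quartile (0.39, adjusted p = 0.129) ended this call as well. So did keeping every gene of at least 1 count (adjusted p = 0.215) and leaving out irradiated females 1 and 2 (0.34, adjusted p = 0.352). *Btg2*, an anti-proliferative gene, rose in females from 75.2, 78.7, 65.8 and 58.6 to 86.4, 74.2, 93.1 and 91.6 CPM, by 0.32 (SE 0.105, adjusted p = 0.0658), and this call was lost without UVB-irradiated female 1, 3 or 4 or no-UVB female 3 or 4 (0.24 to 0.31, adjusted p 0.132 to 0.154), with the replicate number as a block (adjusted p = 0.128) and with all 16 mice in a single fit (adjusted p = 0.248). Irradiated males, at 72.8, 70.5, 79.1 and 74 CPM, lay between the pairs of control males given above, and the male value of -0.10 (SE 0.227, adjusted p = 0.728) was not called. Without no-UVB males 1 and 2, *Btg2* was higher in irradiated males by 0.42 (SE 0.0761, adjusted p = 0.00169). *Gadd45a*, a stress sensor that slows the cell cycle, was low and uneven, at 8.72 ± 3.66 CPM (mean ± SD, n = 4) without UVB and 12.4 ± 2.17 after it in males and 11.1 ± 2.67 without UVB and 12.8 ± 0.795 after it in females. With log2 fold changes of 0.52 (SE 0.259, adjusted p = 0.122) and 0.21 (SE 0.147, adjusted p = 0.377) it was not called in either sex, but was called higher in males without no-UVB male 3 (0.88, adjusted p = 0.000885) and, in females, without no-UVB female 1 (0.39, adjusted p = 0.026). The male value was also called by DESeq2's Wald test (0.54, adjusted p = 0.0705) and with all 16 mice in a single fit (0.50, adjusted p = 0.0779). With no-UVB males 1 and 2 both left out, the male value was 0.18 (SE 0.236, adjusted p = 0.582).

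*Ccng1*, a cyclin that recruits a phosphatase to Mdm2, rose in females alone among the responses tested within a sex. It was at 159, 169, 197 and 221 CPM in no-UVB females and 227, 262, 264 and 228 after UVB, without overlap, and the log2 fold change was 0.40 (SE 0.115, adjusted p = 0.0396). The call was lost without no-UVB female 2 (0.36, adjusted p = 0.103), and without irradiated females 1 and 2 (0.40, adjusted p = 0.112). In males it was at 256, 276, 225 and 256 without UVB and 212, 236, 226 and 257 after it, with overlap, and the change of -0.10 (SE 0.0769, adjusted p = 0.291) was not called, except as lower under upper quartile scaling (-0.18, adjusted p = 0.0695). The range of no-UVB males, 225 to 276 CPM, took in that of irradiated females, 227 to 264.

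**Figure D3:**
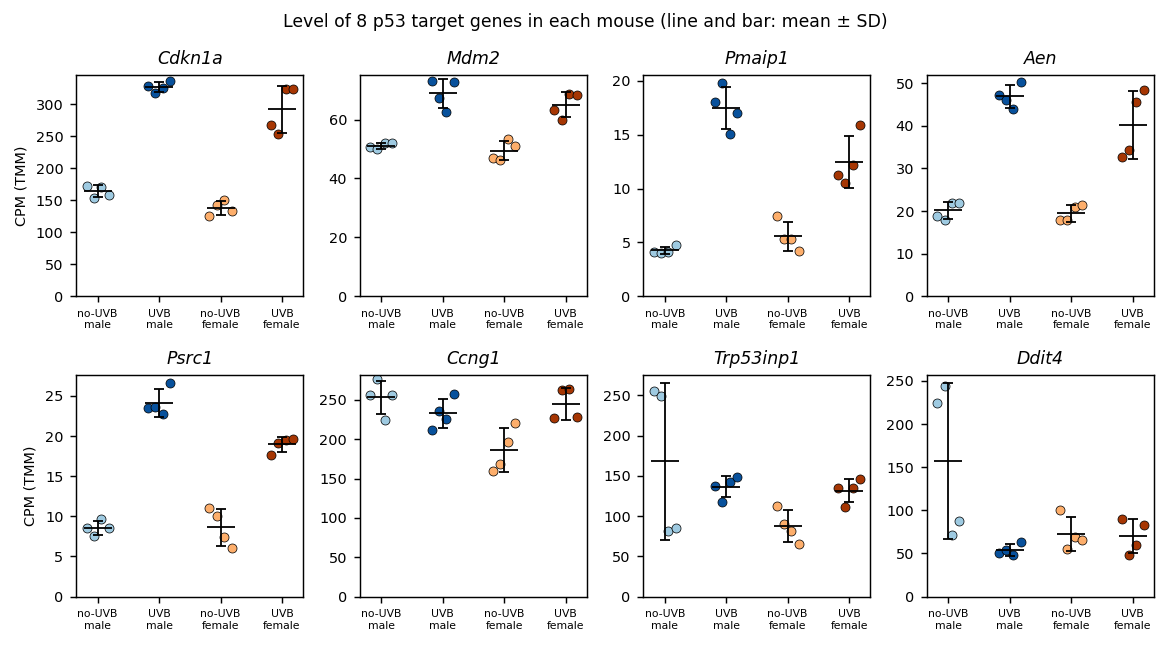
CPM of 8 of the genes in each mouse, with a panel per gene, a linear axis from 0, points for mice, and lines and bars for the group mean ± SD. *Cdkn1a*, *Mdm2*, *Pmaip1*, *Aen* and *Psrc1* lie higher after UVB in both sexes without overlap, *Ccng1* does so in females only, and *Trp53inp1* and *Ddit4* show the wide spread of the no-UVB males.

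Of the 3 death receptor genes, *Tnfrsf10b* and *Eda2r* rose in both sexes, as 11.6% of all genes did, and *Fas* in neither. *Tnfrsf10b*, the mouse receptor of the death ligand TRAIL, was at 4.89, 4.05, 6.32 and 4.53 CPM in no-UVB males and 12.7, 11.5, 10.5 and 14.1 after UVB. In females it was at 5.85, 5.71, 5.6 and 5.71 without UVB and 9.83, 11, 11.8 and 12.4 after it, so that both sexes separated fully. The log2 fold change was 1.32 (SE 0.146, adjusted p = 3.03e-05) in males and 0.98 (SE 0.102, adjusted p = 0.000301) in females. *Eda2r*, an X-linked receptor of the ectodysplasin family, was at 17, 17, 19.2 and 17.4 CPM in no-UVB males and 23.5, 23.4, 18.8 and 22.1 after UVB, with overlap, and rose by 0.33 (SE 0.0855, adjusted p = 0.00678). Its female values, 11, 14.6, 15 and 14.7 without UVB and 15.3, 16.3, 22.8 and 17.4 after it, did not overlap. The female rise of 0.38 (SE 0.144, adjusted p = 0.098) lay close to the threshold and was lost without UVB-irradiated female 3 or 4 or no-UVB female 1, 2, 3 or 4 (0.25 to 0.43, adjusted p 0.126 to 0.244), and with DESeq2's size factors (adjusted p = 0.105) or upper quartile scaling (adjusted p = 0.117). *Fas*, the receptor of the Fas ligand and a classical p53 target, was at 14.8, 15.1, 12.2 and 13.2 CPM without UVB and 11.4, 12.1, 12.4 and 13.6 after it in males and 15.9, 13.2, 13.1 and 14 without UVB and 17.2, 15.6, 14 and 13.3 after it in females. Its groups overlapped in both sexes, and the changes of -0.14 (SE 0.0956, adjusted p = 0.231) and 0.11 (SE 0.108, adjusted p = 0.544) were not called. Under upper quartile scaling *Fas* was called lower in males (-0.22, adjusted p = 0.0723).

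Of the 11 genes of the apoptosis group, 8 rose in males (72.7%, against 29.0% of all genes tested) and 8 in females (72.7%, against 12.8%). Of these, 6 rose in both sexes, as 11.6% of all genes did. By edgeR's quasi-likelihood test none fell, against 30.5% of all genes in males and 10.6% in females, and none was lower at an unadjusted p under 0.05. *Pmaip1*, which encodes the BH3-only protein Noxa, had the largest fold change of the 34 genes in both sexes. It was at 4.15, 4.05, 4.12 and 4.76 CPM in no-UVB males and 18, 19.8, 15.1 and 17 after UVB, and at 7.45, 5.31, 5.3 and 4.24 without UVB and 11.3, 10.5, 12.2 and 15.9 after it in females. It rose 4.16-fold in males, by 2.06 (SE 0.108, adjusted p = 4.14e-07) on the log2 scale, and 2.24-fold in females, by 1.16 (SE 0.182, adjusted p = 0.00251). *Bbc3*, which encodes the BH3-only protein Puma, was at 5.69, 4.47, 7.45 and 5.73 CPM without UVB and 8.94, 13.7, 9.87 and 9.59 after it in males and at 6.58, 7.85, 5.63 and 7.17 without UVB and 10.8, 10.2, 10.8 and 12.1 after it in females. It rose without overlap in both, by 0.86 (SE 0.175, adjusted p = 0.00177) and 0.70 (SE 0.12, adjusted p = 0.00414). *Bax*, the pore-forming protein that BH3-only proteins set free, was at 20.1, 19.6, 17.6 and 18.7 CPM without UVB and 26, 26.7, 23.5 and 24.9 after it in males, and at 19.3, 15.1, 15.9 and 18.7 without UVB and 24.3, 28.1, 20.9 and 22.8 after it in females. Its rise was smaller, at 0.43 (SE 0.0713, adjusted p = 0.000426) and 0.49 (SE 0.117, adjusted p = 0.019), again without overlap. The female call was lost without irradiated females 1 and 2 (0.34, adjusted p = 0.114). An exon of an annotated gene, *Gm45808*, overlaps *Bax* on the same strand, and reads there cannot be told apart.

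*Aen*, an exonuclease that degrades DNA in apoptosis, had the next largest rise of this group. It was at 18.9, 17.9, 21.9 and 21.9 CPM in no-UVB males and 47.2, 46.1, 43.9 and 50.4 after UVB, and at 17.8, 17.8, 20.9 and 21.4 without UVB and 32.6, 34.4, 45.7 and 48.5 after it in females. The log2 fold change was 1.24 (SE 0.0794, adjusted p = 1.14e-06) in males and 1.06 (SE 0.137, adjusted p = 0.000914) in females. *Pidd1*, a scaffold of the PIDDosome that activates caspase-2, was low, at 3.96, 3.41, 4.55 and 4.42 CPM without UVB and 6.1, 6.51, 4.96 and 6.26 after it in males and 2.94, 4.28, 3.57 and 3.94 without UVB and 4.73, 5.19, 5.27 and 6 after it in females. It rose nearly equally in the sexes, by 0.57 (SE 0.136, adjusted p = 0.00478) and 0.53 (SE 0.146, adjusted p = 0.0345). *Ei24*, a gene of an endoplasmic reticulum protein, was at 109, 108, 106 and 115 CPM without UVB and 158, 158, 160 and 166 after it in males and 99.2, 99.4, 105 and 97.2 without UVB and 137, 132, 145 and 147 after it in females. Its mice lay close together within each group, and it rose by 0.58 (SE 0.0497, adjusted p = 5.53e-06) and 0.49 (SE 0.0651, adjusted p = 0.000977).

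*Perp* and *Triap1*, a small inhibitor of apoptosis, rose in males only among the responses tested within a sex. *Perp* was at 1380, 1200, 1330 and 1380 CPM in no-UVB males and 1770, 1920, 1950 and 1600 after UVB, a rise of 0.47 (SE 0.0926, adjusted p = 0.00132). Female values of 1500, 1420, 1330 and 1060 without UVB and 1500, 1250, 1690 and 1400 after it overlapped, and the change of 0.15 (SE 0.143, adjusted p = 0.528) was not called. *Triap1* was at 29.5, 27.6, 26.7 and 30.4 CPM without UVB and 34.3, 34.6, 31.9 and 38.3 after it in males and rose by 0.31 (SE 0.0704, adjusted p = 0.00363), while females had 29.8, 28.9, 29.9 and 27.8 without UVB and 29.4, 33.6, 29.3 and 28.8 after it with a value of 0.07 (SE 0.0732, adjusted p = 0.578). The responses of the sexes did not differ past the threshold for *Perp*, at 0.31 (SE 0.168, adjusted p = 0.299), or *Triap1*, at 0.23 (SE 0.099, adjusted p = 0.206). *Phlda3*, which restrains Akt signalling, rose in females, from 103, 99, 78 and 83.8 to 125, 128, 121 and 113 CPM without overlap, by 0.43 (SE 0.0949, adjusted p = 0.0133). In males it was at 101, 102, 125 and 121 without UVB and 118, 121, 114 and 117 after it, and the value of 0.08 (SE 0.074, adjusted p = 0.364) was called only without no-UVB male 3 (0.15, adjusted p = 0.0965). The difference between the sexes, at -0.36 (SE 0.124, adjusted p = 0.115), was not called. *Apaf1*, the core of the apoptosome, was at 30.2 ± 1.71 CPM (mean ± SD, n = 4) without UVB and 32.5 ± 1.96 after it in males and 28.6 ± 1.04 without UVB and 28.7 ± 2.87 after it in females. Its log2 fold changes of 0.13 (SE 0.0675, adjusted p = 0.134) and 0.01 (SE 0.0828, adjusted p = 0.932) were not called, although the male one was without UVB-irradiated male 2 or no-UVB male 3 (0.17 to 0.18, adjusted p 0.063 to 0.0641).

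*Trp53inp1*, which encodes a cofactor of p53 in apoptosis and autophagy, rose in females, from 113, 89.8, 81.6 and 65.1 to 135, 111, 135 and 146 CPM, by 0.60 (SE 0.15, adjusted p = 0.025). The female groups met at 1 mouse each. The call was lost with all 16 mice in a single fit (0.59, adjusted p = 0.212). Irradiated males, at 137, 118, 143 and 149 CPM, lay near the irradiated females, below no-UVB males 1 and 2 and above no-UVB males 3 and 4. The male value of -0.28 (SE 0.42, adjusted p = 0.613) was not called, and without no-UVB males 1 and 2 it was 0.74 (SE 0.0962, adjusted p = 0.000228), past the threshold in the other direction.

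Among the 5 genes of metabolism, redox balance and nucleotide supply, 1 rose and 3 fell in males (20% and 60%, against 29.0% and 30.5% of all genes tested). In females 1 rose and by edgeR's quasi-likelihood test none fell, or was lower at an unadjusted p under 0.05 (20% and 0%, against 12.8% and 10.6%). *Sesn2*, a sestrin that damps mTORC1 signalling, rose in both sexes, from 24.3, 21.1, 34.2 and 28.6 to 45.6, 39.5, 44.7 and 42.1 CPM in males and from 30, 35.4, 25.5 and 23.8 to 40, 32.3, 43.2 and 47.1 in females. The log2 fold change was 0.69 (SE 0.129, adjusted p = 0.00128) and 0.51 (SE 0.142, adjusted p = 0.0379), and the male groups did not overlap. The male rise was 0.48 (SE 0.0982, adjusted p = 0.00324) without no-UVB males 1 and 2. The other 3 genes that were called fell in males. *Ddit4*, an mTORC1 inhibitor also known as Redd1, was at 225, 244, 71.2 and 87.4 CPM in no-UVB males and 50.3, 53.9, 47.8 and 63.3 after UVB, with a log2 fold change of -1.52 (SE 0.433, adjusted p = 0.0218). In females the values of 100, 54.9, 69.5 and 65.6 without UVB and 90.3, 48.2, 59.9 and 83.1 after it overlapped widely, at -0.04 (SE 0.223, adjusted p = 0.928). *Sesn1*, the other sestrin, was at 112, 121, 72.6 and 75.9 CPM without UVB and 59.7, 62, 66.6 and 68 after it in males, with a log2 fold change of -0.55 (SE 0.165, adjusted p = 0.0203), and at 85.9, 68.2, 67.3 and 72.8 without UVB and 81.9, 63.8, 67 and 70.3 after it in females, with -0.05 (SE 0.101, adjusted p = 0.786).

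Without no-UVB males 1 and 2, the male log2 fold change of *Ddit4* was -0.53 (SE 0.115, adjusted p = 0.00474) and that of *Sesn1* was -0.19 (SE 0.0759, adjusted p = 0.0749). Both were still called lower, with much smaller values than with all mice. The male call of *Sesn1* was lost with every gene of at least 1 count in the fit (-0.53, adjusted p = 0.107). *Rrm2b* encodes the ribonucleotide reductase subunit that p53 induces for repair. It was at 25.6, 22.9, 21.1 and 22.5 CPM in no-UVB males and 15.9, 16.5, 18.6 and 18.8 after UVB, with a log2 fold change of -0.38 (SE 0.0857, adjusted p = 0.00321), and at 22.3, 23.3, 22.4 and 25.5 without UVB and 24.5, 22.5, 22.8 and 20.6 after it in females, with -0.04 (SE 0.0819, adjusted p = 0.79). The male value was -0.29 (SE 0.102, adjusted p = 0.0409) without no-UVB males 1 and 2. *Tigar*, a phosphatase that lowers glycolysis, was at 29 ± 1.89 CPM (mean ± SD, n = 4) without UVB and 27.6 ± 1.25 after it in males and 25.2 ± 1.52 without UVB and 28.7 ± 2.15 after it in females. Its values of -0.05 (SE 0.0677, adjusted p = 0.578) in males and 0.19 (SE 0.0804, adjusted p = 0.135) in females were not called, apart from females without UVB-irradiated female 4 (0.25, adjusted p = 0.0759) and with all 16 mice in a single fit (0.18, adjusted p = 0.0741).

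Among the remaining genes, *Zmat3*, an RNA-binding zinc finger protein, rose in both sexes. It was at 34.5, 32.5, 36.2 and 34.2 CPM in no-UVB males and 57.5, 55, 53.5 and 58 after UVB, and at 31.3, 35.5, 37.4 and 33.1 without UVB and 37.5, 39.5, 52.6 and 49.2 after it in females. The rise was 0.73 (SE 0.0573, adjusted p = 3.44e-06) in males and 0.39 (SE 0.114, adjusted p = 0.0453) in females, where the call was lost without UVB-irradiated female 3 or 4 (0.30 to 0.34, adjusted p 0.113 to 0.114). *Rps27l* was at 83.9, 86.1, 73.7 and 94.7 CPM without UVB and 107, 117, 100 and 105 after it in males and 76, 67.9, 75.8 and 79.3 without UVB and 122, 143, 96.2 and 98.9 after it in females, and rose without overlap by 0.37 (SE 0.0764, adjusted p = 0.00193) and 0.63 (SE 0.124, adjusted p = 0.00797). The female rise was 0.38 (adjusted p = 0.0247) without irradiated females 1 and 2. Reads shared with its close paralog *Rps27* cannot be separated in these files, so its level is uncertain.

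*Gdf15*, a secreted stress hormone, was the least expressed of the 34 genes. It was at 1.21, 0.552, 0.563 and 0.287 CPM in no-UVB males and 1.06, 1.28, 1.27 and 1.2 after UVB, with overlap, and at 0.606, 0.317, 0.262 and 0.657 without UVB and 0.823, 1.19, 0.814 and 1.02 after it in females, without overlap. The log2 fold change was 0.86 (SE 0.34, adjusted p = 0.0531) in males and 1.12 (SE 0.322, adjusted p = 0.0411) in females. The male call was lost without UVB-irradiated male 3 or no-UVB male 2, 3 or 4 (0.64 to 0.83, adjusted p 0.103 to 0.117) and the female call without no-UVB female 2 or 3 (0.90 to 0.98, adjusted p 0.101 to 0.106), and without irradiated females 1 and 2 (1.03, adjusted p = 0.16). The male rise was larger without no-UVB male 1, at 1.33 (adjusted p = 0.00411), and without no-UVB males 1 and 2, at 1.46 (SE 0.368, adjusted p = 0.00989). *Pvt1*, a long non-coding RNA gene beside *Myc*, was at 2 to 2.95 CPM without UVB and 2.11 to 2.5 after it in males and 2.3 to 2.63 without UVB and 2.27 to 3.03 after it in females, and was not called in either sex, at -0.08 (SE 0.166, adjusted p = 0.72) and 0.17 (SE 0.152, adjusted p = 0.485).

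The size of the responses in the sexes was compared gene by gene with the interaction of UVB and sex over all 16 mice. Although 22 of the 34 genes had the larger absolute log2 fold change in males, against 71.5% of all genes tested in both sexes, the difference between the sexes passed the threshold for 3 genes. The spread between mice of a group (biological coefficient of variation) was 0.107 in the male fit and 0.139 in the female fit. A call in 1 sex alone is therefore not by itself a difference between the sexes. *Pmaip1* rose more in males, with a difference of 0.88 (SE 0.222, adjusted p = 0.0437) on the log2 scale. *Ccng1* and *Rrm2b* had negative differences, at -0.52 (SE 0.141, adjusted p = 0.0573) and -0.35 (SE 0.115, adjusted p = 0.099). Over all 17406 genes tested, 2.75% were higher and 4.25% lower in this interaction. The *Pmaip1* call held in all 16 fits that left out 1 mouse. That of *Ccng1* was lost without no-UVB female 2 or UVB-irradiated male 1 or no-UVB male 2 (-0.48 to -0.46, adjusted p 0.108 to 0.13), and that of *Rrm2b* without UVB-irradiated female 1, 2 or 3 or no-UVB female 1, 2 or 3 or UVB-irradiated male 1, 2 or 3 or no-UVB male 1, 2 or 4 (-0.39 to -0.30, adjusted p 0.103 to 0.206). The *Rrm2b* call was also lost with the unstranded counts (adjusted p = 0.129), with DESeq2's size factors (adjusted p = 0.121) and with every gene of at least 1 count (adjusted p = 0.207). The same held with the replicate number as a block (adjusted p = 0.122). Without no-UVB males 1 and 2 none of the 3 was called, with values of 0.82 for *Pmaip1* (adjusted p = 0.197), -0.45 for *Ccng1* (adjusted p = 0.244) and -0.28 for *Rrm2b* (adjusted p = 0.359), and 0.351% and 0.641% of all genes were called higher and lower. Nor was any of the 3 called without irradiated females 1 and 2, with values of 0.71 for *Pmaip1* (adjusted p = 0.186), -0.51 for *Ccng1* (adjusted p = 0.152) and -0.29 for *Rrm2b* (adjusted p = 0.319), where 0.669% and 0.918% of all genes were called. *Ddit4* and *Trp53inp1* had differences of -1.50 (SE 0.494, adjusted p = 0.11) and -0.89 (SE 0.451, adjusted p = 0.28), which were not called. The *Ddit4* difference was called without no-UVB male 3 or 4 (-1.74 to -1.70, adjusted p 0.0401 to 0.0786), by DESeq2's Wald test (-1.47, adjusted p = 0.0493) and with at least 10 counts in every mouse (-1.50, adjusted p = 0.0917). Leaving out 1 mouse also brought calls for *Zmat3* without UVB-irradiated female 3 (0.43, adjusted p = 0.0575), *Psrc1* without no-UVB female 4 (0.51, adjusted p = 0.0818), *Phlda3* without no-UVB female 1 (-0.43, adjusted p = 0.0762) and *Sesn1* without no-UVB male 3 (-0.63, adjusted p = 0.0635).

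For *Cdkn1a* and *Mdm2* the difference between the sexes was small beside its error, at -0.08 (SE 0.119, adjusted p = 0.731) and 0.04 (SE 0.0938, adjusted p = 0.835). Without irradiated females 1 and 2 it was -0.22 (SE 0.104, adjusted p = 0.353) for *Cdkn1a*, again not called, and -0.02 (SE 0.0988, adjusted p = 0.944) for *Mdm2*.

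**Figure D4:**
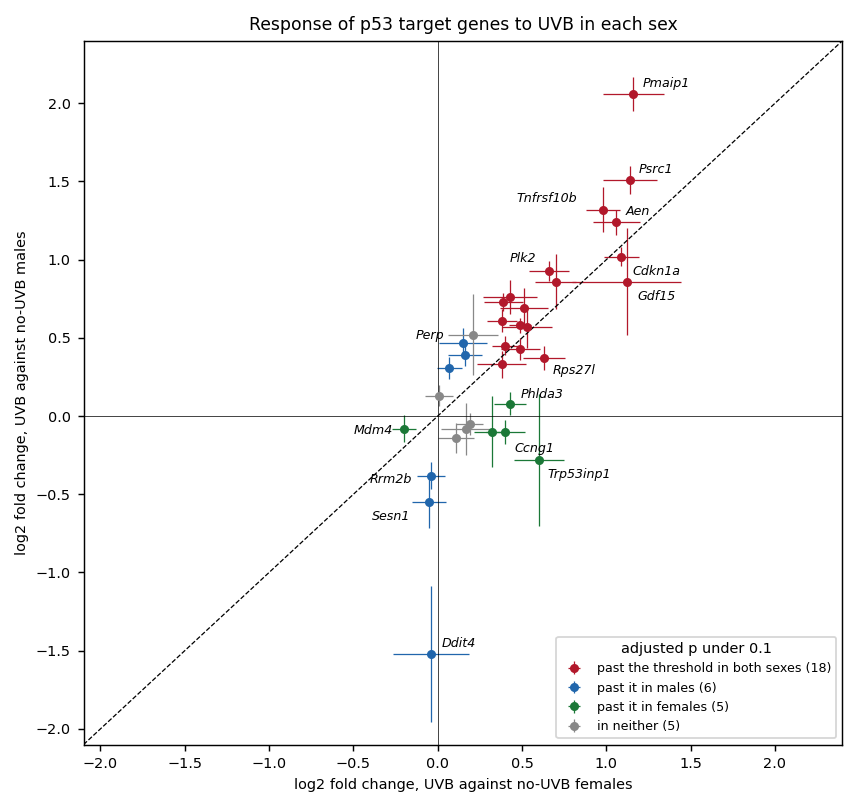
Log2 fold change after UVB in males (vertical axis) against females (horizontal axis) for the 34 genes, with bars of 1 standard error and the line of equal response. Most genes lie in the upper right near the line, *Pmaip1* lies above it, and *Ddit4* lies far below it.

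The levels of the sexes were also compared within each treatment. Without UVB, 6 of the 34 genes were higher in males and none was lower, against 7.21% and 4.58% of all genes tested, by edgeR's quasi-likelihood test. At an unadjusted p under 0.05 there were 9 higher and 1 lower, against 12.5% and 9.61% of all genes. DESeq2 called 8 and 0, against 8.04% and 6.06%. The 6 were *Ccng1* at 0.44 (SE 0.1, adjusted p = 0.012), *Phlda3* at 0.31 (SE 0.088, adjusted p = 0.0424), *Ddit4* at 1.11 (SE 0.349, adjusted p = 0.0692), *Cdkn1a* at 0.25 (SE 0.0842, adjusted p = 0.0849), *Trp53inp1* at 0.94 (SE 0.321, adjusted p = 0.0931) and *Eda2r* at 0.35 (SE 0.124, adjusted p = 0.0959). Control males and control females did not overlap for 4 genes that were higher in males, *Cdkn1a*, *Ccng1*, *Eda2r* and *Ei24*, against 7.80% of all genes, nor for *Mdm4*, which was lower in males, against 5.17%. Without no-UVB males 1 and 2, *Phlda3* was the 1 gene still called, at 0.44 (adjusted p = 0.0218), where 3.31% of all genes were higher. The other 5 were not called in that setting, with *Ccng1* at 0.37 (adjusted p = 0.141), *Cdkn1a* at 0.26 (adjusted p = 0.256) and *Eda2r* at 0.41 (adjusted p = 0.205), while *Ddit4* was at 0.13 (SE 0.251, adjusted p = 0.855) and *Trp53inp1* at -0.06 (SE 0.167, adjusted p = 0.9). The count also changed when other single mice were left out, from 1 without no-UVB female 4 to 6, with 2 or 3 without no-UVB female 2 or 3, no-UVB male 1 or 2, UVB-irradiated female 1 or 4 or UVB-irradiated male 1.

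After UVB, 8 genes were higher and 2 lower in males, against 12.8% and 12.5% of all genes tested. The higher ones were *Ei24* at 0.19 (SE 0.0523, adjusted p = 0.0188), *Zmat3* at 0.33 (SE 0.0923, adjusted p = 0.0236), *Pmaip1* at 0.49 (SE 0.147, adjusted p = 0.0316), *Plk3* at 0.44 (SE 0.146, adjusted p = 0.0491), *Triap1* at 0.20 (SE 0.0699, adjusted p = 0.0594), *Ppm1d* at 0.22 (SE 0.0797, adjusted p = 0.0717), *Psrc1* at 0.35 (SE 0.132, adjusted p = 0.0794) and *Perp* at 0.31 (SE 0.119, adjusted p = 0.0837). The lower ones were *Rrm2b* at -0.37 (SE 0.082, adjusted p = 0.00687) and *Fas* at -0.28 (SE 0.101, adjusted p = 0.063). Irradiated males lay above irradiated females without overlap for *Plk3*, *Psrc1*, *Ei24* and *Zmat3*, and below for *Rrm2b*, against 11.5% and 9.76% of all genes. The count of higher genes was 3 without UVB-irradiated female 1 or UVB-irradiated male 1, 4 without UVB-irradiated female 4 and 5 without UVB-irradiated male 2. The count of lower genes was 1 without UVB-irradiated female 1 or 2 or UVB-irradiated male 1, 2 or 3. Without irradiated females 1 and 2 only *Triap1* was called higher and *Rrm2b* lower, against 4.35% and 4.23% of all genes. The other 8 were not called, with *Ei24* at 0.13 (adjusted p = 0.227), *Zmat3* at 0.13 (adjusted p = 0.358), *Pmaip1* at 0.31 (adjusted p = 0.334), and *Plk3* at 0.51 (adjusted p = 0.154). *Ppm1d* was at 0.12 (adjusted p = 0.501), *Psrc1* at 0.30 (adjusted p = 0.345), *Perp* at 0.22 (adjusted p = 0.411) and *Fas* at -0.15 (adjusted p = 0.476). *Cdkn1a* and *Ccng1*, which differed between the sexes without UVB, were not called in irradiated skin, at 0.16 (SE 0.0837, adjusted p = 0.185) and -0.07 (SE 0.0999, adjusted p = 0.644).

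Another 3 lists of the pathway were described in the same fits. Of 44 other p53-activated targets tested, 22 rose and 10 fell in males (50% and 22.7%, against 29.0% and 30.5% of all genes tested), with a median of 0.17. In females 12 rose and 2 fell (27.3% and 4.55%, against 12.8% and 10.6%), with a median of 0.11. The male counts were 19 and 8 without no-UVB males 1 and 2, and the female counts 15 and 1 without irradiated females 1 and 2. The largest changes among those named by the lowest p were in *Gtse1*, a microtubule-binding protein of late cell cycle that also restrains p53, at 1.95 (SE 0.173, adjusted p = 6.58e-06) in males and 1.38 (SE 0.166, adjusted p = 0.00061) in females. *Bloc1s2*, a subunit of a complex that forms lysosome-related organelles such as melanosomes, rose in both sexes, by 0.91 (SE 0.068, adjusted p = 2.49e-06) and 0.64 (SE 0.0999, adjusted p = 0.00248). *Pmm1*, a phosphomannomutase, and *Polk*, the polymerase kappa of translesion synthesis, rose in both sexes as well. The rise of *Pmm1* was 0.80 (SE 0.0663, adjusted p = 4.63e-06) in males and 0.64 (SE 0.107, adjusted p = 0.00373) in females, and that of *Polk* was 0.62 (SE 0.0659, adjusted p = 2.18e-05) and 0.45 (SE 0.0883, adjusted p = 0.00797). *Ckap2*, a spindle protein, rose by 1.31 (SE 0.206, adjusted p = 0.000505) in males and by 0.94 (SE 0.117, adjusted p = 0.000702) in females.

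Of the kinases and other proteins that act upstream of p53, 17 were tested in males, where 7 rose and 4 fell (41.2% and 23.5%, against 29.0% and 30.5% of all genes tested). Of 18 tested in females, 1 rose and 4 fell (5.56% and 22.2%, against 12.8% and 10.6%). The male counts were 4 and 3 without no-UVB males 1 and 2, and the female counts 2 and 4 without irradiated females 1 and 2. *Prkdc*, the catalytic subunit of DNA-dependent protein kinase, fell in both sexes, from 27.7 ± 1.15 to 15 ± 1.08 CPM (mean ± SD, n = 4) in males and from 29.6 ± 2.88 to 17.5 ± 1.51 in females. The log2 fold change was -0.86 (SE 0.0724, adjusted p = 4.96e-06) and -0.76 (SE 0.0966, adjusted p = 0.000785). *Atm*, *Atr* and *Trp53bp1*, which sense or signal DNA breaks and stalled replication, fell in females, with log2 fold changes of -0.34 (SE 0.065, adjusted p = 0.00668), -0.32 (SE 0.0783, adjusted p = 0.0205) and -0.35 (SE 0.0678, adjusted p = 0.00697). In males *Atm* and *Trp53bp1* fell too, at -0.22 (SE 0.0972, adjusted p = 0.083) and -0.22 (SE 0.064, adjusted p = 0.0149), while *Atr* was not called, at -0.09 (SE 0.0746, adjusted p = 0.313). The male call of *Trp53bp1* was lost without no-UVB males 1 and 2 (-0.16, adjusted p = 0.153). *Usp7*, which stabilises Mdm2 and p53, rose in males by 0.39 (SE 0.0591, adjusted p = 0.00024), as did *Ppp1r13l*, an inhibitor of p53, by 0.54 (SE 0.104, adjusted p = 0.00144) and the ubiquitin ligase gene *Rchy1* by 0.25 (SE 0.0554, adjusted p = 0.00284). In females these 3 were not called, at 0.12 (SE 0.0981, adjusted p = 0.459), 0.21 (SE 0.18, adjusted p = 0.468) and 0.12 (SE 0.0592, adjusted p = 0.192), and none of the 3 was called in the interaction, at 0.26 (SE 0.114, adjusted p = 0.203), 0.31 (SE 0.228, adjusted p = 0.458) and 0.11 (SE 0.0711, adjusted p = 0.373). *Ppp1r13l* was called higher in females without irradiated females 1 and 2, at 0.48 (SE 0.109, adjusted p = 0.0282), with an interaction of 0.04 (adjusted p = 0.938).

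In the Bcl-2 family and caspases, 7 of 16 genes rose and 3 fell in males (43.8% and 18.8%, against 29.0% and 30.5% of all genes tested), while by edgeR's quasi-likelihood test none rose and 1 fell in females (0% and 6.25%, against 12.8% and 10.6%). The male counts were 5 and 1 without no-UVB males 1 and 2, and the female counts 0 and 0 without irradiated females 1 and 2. At an unadjusted p under 0.05, 1 of the 16 was higher in females. *Bcl2*, the founding inhibitor of apoptosis, fell in both sexes, from 25.1 ± 3.22 to 14.2 ± 0.851 CPM (mean ± SD, n = 4) in males and from 23.4 ± 2.06 to 18.9 ± 1.89 in females, with log2 fold changes of -0.80 (SE 0.097, adjusted p = 5.51e-05) and -0.30 (SE 0.0956, adjusted p = 0.0617). The fall was larger in males, with a difference of -0.52 (SE 0.138, adjusted p = 0.0538). The male fall was still called without no-UVB males 1 and 2, at -0.76 (SE 0.107, adjusted p = 0.000363), and the difference was not, at -0.49 (SE 0.146, adjusted p = 0.165). Without irradiated females 1 and 2 neither the female value, at -0.26 (SE 0.119, adjusted p = 0.192), nor the difference, at -0.54 (SE 0.156, adjusted p = 0.136), was called. The partners of the p53 targets that rose in males had smaller log2 fold changes than *Pmaip1* or *Bbc3*. *Bcl2l11*, the gene of the BH3-only protein Bim, rose by 0.35 (SE 0.0925, adjusted p = 0.00789), *Bak1*, the other pore-forming protein, by 0.22 (SE 0.0586, adjusted p = 0.00763) and *Casp8*, the caspase of death receptors, by 0.27 (SE 0.0698, adjusted p = 0.00784). In females they were at 0.20 (SE 0.168, adjusted p = 0.471), 0.18 (SE 0.0956, adjusted p = 0.226) and 0.00 (SE 0.0869, adjusted p = 0.989), none of them called, and in the interaction at 0.14 (SE 0.202, adjusted p = 0.732), 0.03 (SE 0.108, adjusted p = 0.917) and 0.25 (SE 0.113, adjusted p = 0.219), also not called.

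**Figure D5:**
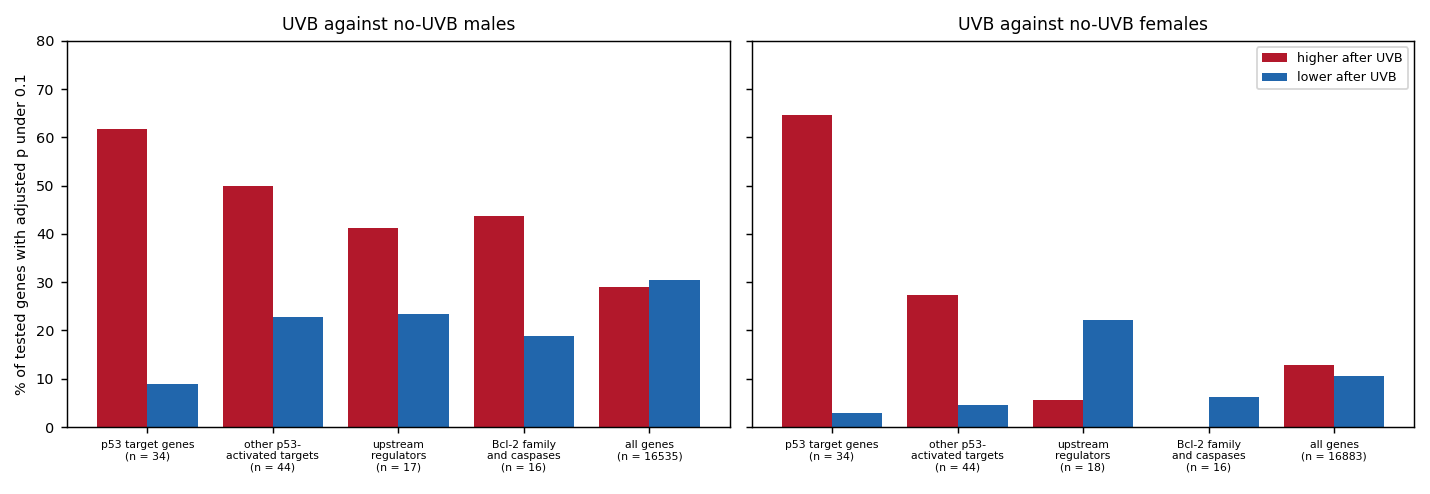
Percent of the genes of each list called higher or lower after UVB in males and in females, beside the percent of all genes tested. The 34 genes have 61.8% called higher in males and 64.7% in females, beside 29.0% and 12.8% of all genes.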

How the data were processed

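RNA from whole dorsal skin was sequenced by the authors in 16 mice, with 4 in each group of sex and treatment. The authors counted reads per Ensembl gene with STAR on GRCm39, per the submitters' processing notes, and deposited these counts as whole numbers without normalization. The version of STAR and the annotation it used are not given in the sources used here. Counts of the strand that the directional library kit reports were used, in 1 table per mouse. GENCODE M39, which holds 54749 of the 55359 identifiers, gave names, positions and canonical transcripts.

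Differences were tested with edgeR 4.0.16 in R 4.3.3, with limma 3.58.1, statmod 1.5.0 and DESeq2 1.42.0 alongside. Python 3.11.15 with pandas 2.3.3, numpy 2.4.6 and matplotlib 3.10.9 served for summaries and figures. After filterByExpr and TMM scaling, edgeR's quasi-likelihood test (robust) was fitted over all genes kept, with the 8 males for the male response, the 8 females for the female response, and all 16 mice for the interaction and for either contrast of males with females. A gene was called higher or lower at a Benjamini-Hochberg adjusted p under 0.1 over all genes tested. The study also required a log2 fold change past 1 after shrinkage with apeglm. The alternative here applies 1 to edgeR's unshrunken value, a different rule, and is not the main one since most of the 34 genes move by less. Standard errors (SE) were taken as the absolute log2 fold change divided by the square root of the F statistic. The procedure was tested on simulated data.

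The 34 genes and the other lists were chosen with earlier results of these data known. All 34 are named, and of each other list the up to 4 genes with the lowest p in each sex may be, of which 1 is not reported here. *Ptp4a1*, whose symbol 2 identifiers share, and *Lor*, which had no match, were left out of their lists. Libraries of a group were compared pairwise, and each pair differed by more than sampling noise (chi-square per degree of freedom 9.54 to 98.3). Alternatives were the unstranded counts, scaling by DESeq2's size factors or by the upper quartile, DESeq2's Wald test, other filters and thresholds, the replicate number as a block, all 16 mice in a single fit, and leaving out each mouse. Leaving out no-UVB males 1 and 2 together, leaving out irradiated females 1 and 2 together and the additional stress genes were chosen after seeing the data. CPM per kb uses the length of the canonical transcript. Other experiments of the study were not analysed here.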

Additional observations from a re-analysis of the deposited data

Results flagged for a closer look

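In 8 of the 136 groups of 4 mice checked over the 34 genes, 1 mouse lay far from the others, where chance flags about 1 in 20 groups, or 6.8 here. They were spread over 5 mice and 8 genes. In no-UVB males, mouse 4 had 127 CPM of *Mdm4*, below 148 to 152 in the others, and 4.76 CPM of *Pmaip1*, above 4.05 to 4.15. In no-UVB females, mouse 1 had 15.1 CPM of *Gadd45a*, above 9.49 to 10 in the others, and 11 CPM of *Eda2r*, below 14.6 to 15.0. In UVB-irradiated females, mouse 2 had 33.0 CPM of *Apaf1*, above 26.8 to 27.5, and 33.6 CPM of *Triap1*, above 28.8 to 29.4. Mouse 4 of the same group had 38.3 CPM of *Plk3*, below 46.7 to 47.5. In UVB-irradiated males, mouse 3 had 25.8 CPM of *Tigar*, below 28.2 to 28.4.

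The responses of the sexes differed in the interaction of UVB and sex for *Pmaip1* (0.88 on the log2 scale, males minus females), *Ccng1* (-0.52) and *Rrm2b* (-0.35), by edgeR's quasi-likelihood test. *Pmaip1* was lower in no-UVB males than in no-UVB females by -0.39 (SE 0.166, adjusted p = 0.172), which was not called, and higher in males after UVB. *Ccng1* differed between the sexes in the controls and *Rrm2b* in irradiated skin. None of the 3 was called when no-UVB males 1 and 2 or irradiated females 1 and 2 were left out.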

How the results depend on the processing

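Over other scalings, filters, strand counts, designs and tests, 755 of 779 results on single genes kept their direction and their side of the threshold, 15 lost and 7 gained a call, and 2 changed sign, *Apaf1* in females (-0.02) and *Pidd1* in the interaction (0.00), both under upper quartile scaling. The cause was not tested. Counts of called genes moved by over 1.5 times as follows. Genes lower in the interaction numbered 1 with the unstranded counts, with DESeq2's size factors and with every gene of at least 1 count. Under upper quartile scaling 5 genes fell in males, and 3 and 4 were higher in males than in females without and after UVB. With every gene of at least 1 count, 0 genes fell in females, and 2 and 3 were higher in males without and after UVB. DESeq2's Wald test called 1 gene lower in males after UVB.

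At an adjusted p under 0.05, 0 genes fell in females, 0 were lower in the interaction, 2 were higher in males without UVB, and 4 were higher and 1 lower after it. At 0.01, 1 gene fell in males, 10 rose and 0 fell in females, 0 were called in either direction of the interaction, 0 were higher without UVB, and 0 were higher and 1 lower after it. With a log2 fold change past 1 as well, 5 rose and 1 fell in males, and 5 rose and 0 fell in females. The shares of all genes called at an adjusted p under 0.05 or 0.01 were not counted. The counts at those thresholds therefore cannot be read as particular to the p53 genes.

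Leaving out 1 mouse at a time, 20 to 23 genes rose and 3 to 3 fell in males, and 18 to 22 rose and 0 to 1 fell in females. The interaction had 1 to 2 higher and 0 to 4 lower genes. Between the sexes, 1 to 6 were higher and 0 to 1 lower without UVB, and 3 to 9 higher and 1 to 2 lower after it. Signs changed over these fits for *Btg2* (-0.24 to 0.08), *Pvt1* (-0.17 to 0.04) and *Trp53inp1* (-0.49 to 0.00) in males, for *Apaf1* (-0.07 to 0.04), *Ddit4* (-0.18 to 0.16), *Rrm2b* (-0.08 to 0.00) and *Sesn1* (-0.13 to 0.03) in females, and for *Bax* (-0.13 to 0.02), *Eda2r* (-0.12 to 0.09), *Gdf15* (-0.49 to 0.20) and *Pidd1* (-0.06 to 0.11) in the interaction.

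Without no-UVB males 1 and 2, chosen after seeing the data, 0 genes were called higher and 0 lower in the interaction, and 1 was higher in males without UVB. *Btg2* (0.42), *Phlda3* (-0.04) and *Trp53inp1* (0.74) changed sign in males. In the interaction *Btg2* (0.07), *Gadd45a* (-0.05), *Bbc3* (-0.04), *Pidd1* (-0.12), *Trp53inp1* (0.12), *Sesn2* (-0.05) and *Gdf15* (0.32) did. Without irradiated females 1 and 2, also chosen after seeing the data, 0 genes fell in females, 0 were called higher and 0 lower in the interaction, and 1 was higher and 1 lower in males after UVB. *Fas* (-0.04), *Apaf1* (-0.06) and *Triap1* (0.00) changed sign in females, and *Mdm2* (-0.02), *Bax* (0.08), *Pidd1* (-0.06) and *Aen* (-0.05) in the interaction.

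Deviations of mice of the same replicate number in the 2 groups of a sex had correlations of -0.113 to 0.043 in males and -0.231 to 0.351 in females. Mice of unlike numbers were not compared, so these values cannot show whether the numbers pair the mice. With the replicate number as a block, 0 genes fell in females and 1 was lower in the interaction, and no other count moved by over 1.5 times. Depth limits *Gdf15*, at 5 to 34 counts.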

Other observations

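Genes known to respond to glucocorticoids, and the immediate early gene *Fos*, were looked up in the no-UVB males after their values of *Ddit4* and *Trp53inp1* had been seen. *Tsc22d3* was at 695 and 749 CPM in mice 1 and 2 and at 251 and 343 in mice 3 and 4. *Fkbp5* was at 234 and 182 against 80.8 and 96.2, *Per1* at 270 and 289 against 195 and 212, *Sgk1* at 190 and 200 against 110 and 129, *Mt2* at 159 and 171 against 56.1 and 68.1, and *Zbtb16* at 133 and 60.4 against 33.4 and 33.6. *Fos* was at 148 and 250 CPM in mice 1 and 2, 35.8 and 27.2 in mice 3 and 4, and 10.5 to 25.5 in the other 12 mice. All 7 were thus higher in both of mice 1 and 2 than in both of mice 3 and 4, as were *Ddit4*, *Trp53inp1*, *Sesn1* and *Btg2*. In the other 12 mice *Tsc22d3* was at 108 to 321 CPM, *Fkbp5* at 44.8 to 172 and *Per1* at 88.1 to 159. *Sgk1* was at 89.5 to 150, *Mt2* at 33.5 to 86.9 and *Zbtb16* at 18.6 to 115 there. Irradiated males 3 and 4 were higher than irradiated males 1 and 2 for *Zbtb16* (99.4 and 90.8 against 41.3 and 18.6) and *Fkbp5* (150 and 172 against 95.5 and 61.8). Neither the split of the control males nor its part in the values of the p53 genes was tested.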
